A study of Mus musculus with 4 samples.

Results

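The genes Tnf, Tnfrsf1a, Tnfrsf1b, Fasl, Fas, Tnfsf10, Tnfrsf10b, Ltb and Ltbr encode 4 ligands of the tumour necrosis factor family and 5 of their receptors. They were taken by symbol, 9 of the 55450 genes of a single-cell RNA sequencing matrix from 4T1 tumours, a transplanted mouse mammary carcinoma, after sorting for CD45. Female BALB/c mice of 6 to 8 weeks received 1000000 4T1 cells in 25 µl in the right flank, an intravenous injection of PBS or of the oncolytic nanosystem TIOs on day 7. Near-infrared (NIR) light of 980 nm was then given for 5 min at 1.0 W cm-2 on each of days 8 to 10, and tumours were taken on day 13. Of the 4 samples, 2 were mapped to PBS, 1 to TIOs+NIR3 and 1 was left unmapped, because its title says PBS and its protocol says TIOs. The number of mice behind a sample is not stated in the sources read.

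The barcodes carry 4 library suffixes, and neither the labels nor the paper say which suffix is which sample. PBS and TIOs+NIR3 were therefore not compared, no test was made, and each library is shown apart as 1 of unknown treatment. Levels are given as CPM, the unique molecular identifiers (UMIs) of a gene for every 1000000 UMIs counted in the named cells. Intervals are exact 95% intervals, Poisson for CPM and Clopper-Pearson for shares, and cover counting error only. The chemistry reads the 3′ end of the transcript, so levels are compared between cells and not between genes.

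Ligands of this family are made as membrane proteins that act as trimers, and several can be cut free. TNF binds TNFR1 (Tnfrsf1a), which carries a death domain, and TNFR2 (Tnfrsf1b), which does not. Fas ligand binds Fas, and TRAIL (Tnfsf10) binds its death receptor (Tnfrsf10b), both of which recruit FADD and caspase-8. Lymphotoxin beta (Ltb) joins lymphotoxin alpha (Lta) on the cell surface and binds Ltbr, a receptor of stromal and myeloid cells that drives the NF-kB pathway. TNF is a known product of activated myeloid cells, and Fas ligand of cytotoxic lymphocytes.

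Tnf and Ltb are neighbours whose highest classes by pooled level differed. These were neutrophil-like cells for Tnf and T cell-like cells without Cd4 or Cd8 for Ltb. In libraries 2 and 4 neutrophil-like cells led both genes. The bases before both starts are shown. In GENCODE vM21 (GRCm38) Ltb lies on chr17:35194439-35196320 on the plus strand and Tnf on chr17:35199381-35202007 on the minus strand, with 3060 bases between them. Lta, also on the minus strand, has its 3′ end 1157 bases beyond the start of Tnf. RefSeq promoter windows (GRCm38.p6) were found for 8 members, and for Tnfrsf10b none was used. The 182 bases of Ltb are chr17:35194257-35194438, cut where the GENCODE gene begins, and the 250 bases of Tnf are chr17:35202008-35202257, both printed 5′ to 3′ along the gene. Capitals mark matches on either strand to a kappaB form (GGNNTTTCC), a GAS form (TTCNNNGAA) or TATAAA.
Ltb: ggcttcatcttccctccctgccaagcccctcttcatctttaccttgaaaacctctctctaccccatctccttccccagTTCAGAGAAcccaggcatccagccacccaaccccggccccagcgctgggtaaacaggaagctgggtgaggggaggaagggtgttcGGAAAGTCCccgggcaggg
Tnf: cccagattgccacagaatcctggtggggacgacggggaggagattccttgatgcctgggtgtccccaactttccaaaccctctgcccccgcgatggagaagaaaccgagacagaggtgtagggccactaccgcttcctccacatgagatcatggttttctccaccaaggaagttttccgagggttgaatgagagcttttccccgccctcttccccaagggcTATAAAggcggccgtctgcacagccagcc
In the Ltb window the kappaB match begins at base 164 and the GAS match at base 79, and in the Tnf window TATAAA begins at base 222. Among 32851 windows of 250 bases before a start, 4.93% held the kappaB form, 7.02% the GAS form and 12.4% TATAAA. Of the members only Ltb held the kappaB form, and Tnfrsf1a, Tnfrsf1b, Fas and Ltb held the GAS form. These letters are those of the reference strain and not of BALB/c, a match is not a shown site, and no match in the window says nothing of the factor.

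With at least 300 genes and at most 15% mitochondrial UMIs asked of a cell, 32133 of 33064 barcodes remained (7847, 8614, 6783 and 8889 in libraries 1 to 4), with a median of 11698, 2641.5, 2695 and 7182 UMIs. Cells were gated by 16 lists of 6 marker genes, none of them a member, which placed 27522 cells in 20 classes, of which 14 had 100 cells or more. The classes differed in depth and in their libraries. The median was 1829 UMIs in neutrophil-like, 6845 in macrophage-like, 7992.5 in monocyte-like, 8793.5 in mature DC-like, 6491 in pDC-like, 10578 in endothelial-like, 15701 in fibroblast-like and 18148 in tumour or epithelial-like cells. Library 1 held 3869 of 3985 tumour or epithelial-like and 242 of 266 CD8 T cell-like cells, library 3 held 182 of 212 mature DC-like cells, and library 4 held 2829 of 3544 monocyte-like cells. Ptprc, which encodes CD45, was found in 36.1% of fibroblast-like, 14.8% of tumour or epithelial-like and 12.4% of endothelial-like cells, against 88.7% of monocyte-like cells. Of the kept cells, 190 (0.591%) carried 1 of 95 barcode sequences that occurred in 2 libraries.

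**Figure D1:**
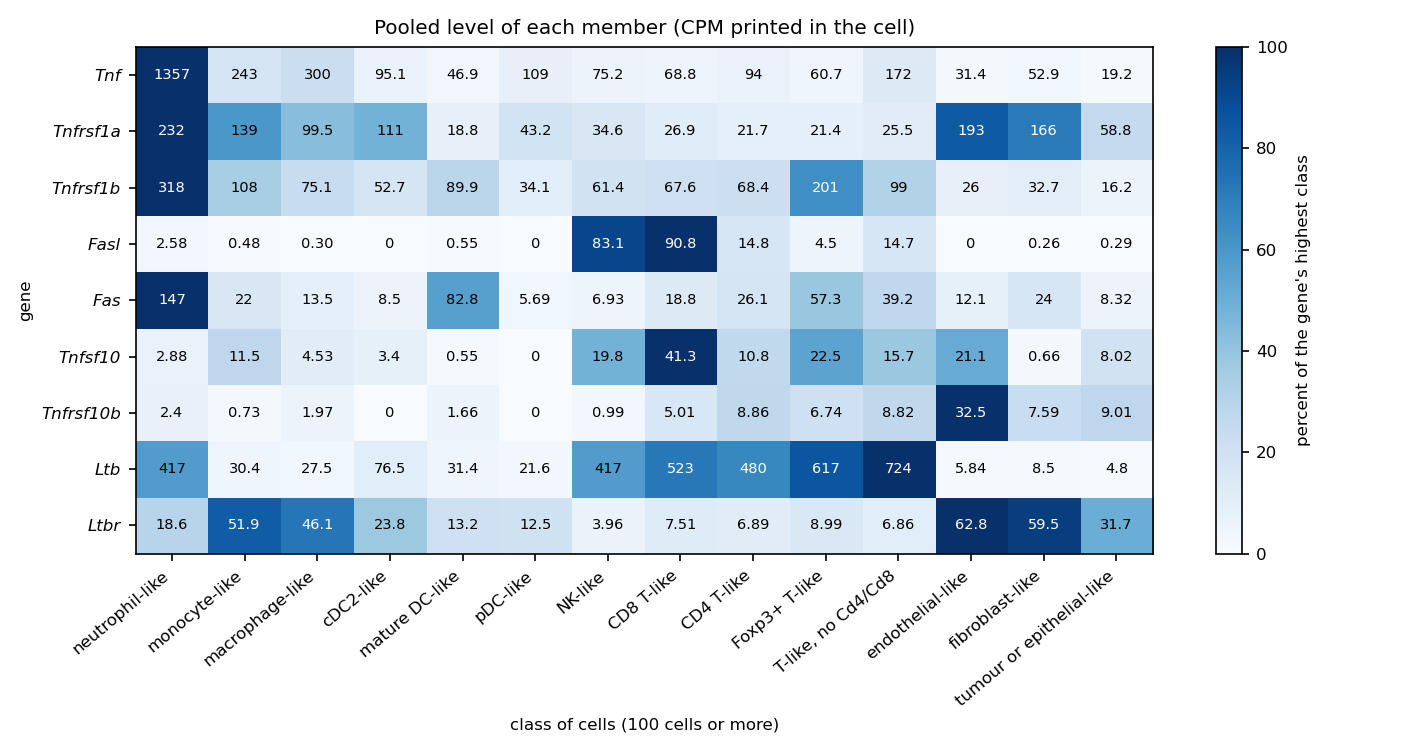
Heat map of the 9 members (rows) in the 14 classes of 100 cells or more (columns). Each cell prints the pooled CPM, and the shade gives it as a percent of the highest class of that gene, so that shades may be compared along a row. Tnf, Tnfrsf1a, Tnfrsf1b and Fas peak in neutrophil-like cells, Fasl and Tnfsf10 in CD8 T cell-like cells, Ltb across the T cell-like classes, and Tnfrsf10b and Ltbr in endothelial-like cells.

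Tnf, the founding ligand of the family, peaked in neutrophil-like cells, with 1357 CPM (1339 to 1375). They held 39.2% of its 57628 UMIs, although each held few UMIs in all. With library 3 left out they held 21.1%, and macrophage-like cells then held more. By library the neutrophil-like level was 308, 964, 2320 and 559 CPM. Library 3 stood 7.54-fold above library 1, and its interval (2284 to 2357) did not reach that of any other library. Leaving out library 3 brought the pooled level down to 724 CPM, still the highest class.

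Macrophage-like cells followed, with 258, 316, 640 and 306 CPM of Tnf in libraries 1 to 4, and monocyte-like cells with 319, 241, 551 and 208 CPM. All 3 myeloid classes were highest in library 3. The ratio of neutrophil-like to macrophage-like cells within a library was 1.19, 3.05, 3.63 and 1.82, so the order of both held in each library while its size did not. In library 1 monocyte-like cells (319 CPM) were above neutrophil-like cells (308 CPM), but within the interval of the latter (278 to 339).

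With each cell thinned to 1000 UMIs, Tnf was found in 41.7% of neutrophil-like cells (40.6 to 42.9), 21.9% of macrophage-like cells and 18.0% of monocyte-like cells. Without thinning the shares were 52.1%, 55.7% and 58.7%, an order that goes against the CPM between classes of unequal depth, and it is not read further. Fibroblast-like cells, which served as background, had Tnf in 11.8% of thinned cells and 41.0% of all cells. Among them the thinned share was 16.9% where a Ptprc UMI was present (2234 cells) and 8.82% where none was (3949 cells). In thinned fibroblast-like cells Tnf was found with Ltb in 80 cells and with Tnfrsf1b in 181. Independence within each library gives 24.0 and 77.9. With Tnfrsf1a it was found in 66 cells, against 93.9 given. Whether mixed cells raised this background was not tested. T cell-like cells together (7.08%) and tumour or epithelial-like cells (1.88%) were below that background, and no Tnf expression is read in them from shares. For T cell-like cells the CPM went the other way (95.4 against 52.9 in fibroblast-like cells), and no order is read. Among them, T cell-like cells without Cd4 or Cd8 had 172 CPM, with 163 to 208 CPM over 3 libraries. Their thinned share was 9.25%.

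Tnf was unevenly spread among neutrophil-like cells. Of 7726 cells, 3698 had no Tnf UMI and 551 (7.13%) held 50% of its UMIs, with up to 78 UMIs in 1 cell. The cells with no UMI made up 75.3%, 52.4%, 32.4% and 57.1% in libraries 1 to 4, and cells with 10 UMIs or more 1.18%, 4.94%, 19.2% and 0.746%. Library 3 thus had both the fewest empty and the most high cells. Split by library, the cells holding 50% of the UMIs made up 4.40%, 7.25%, 10.8% and 9.22%.

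Neutrophil-like cells were also split by Retnlg, a gene of mature circulating neutrophils and a marker of this gate, and by Cd274, which encodes PD-L1. Cells with Cd274 and no Retnlg had 690, 1242, 2821 and 666 CPM of Tnf in libraries 1 to 4. Cells with Retnlg had 161, 675, 1900 and 473 CPM, below the former in each library with intervals apart. Cells with neither transcript lay between them, at 577, 1026, 2581 and 635 CPM, and overlapped the Cd274 cells in libraries 1 and 4. Median depth was 1973 UMIs in the Retnlg cells and 1878.5 in the Cd274 cells. For Ltb the Retnlg cells were again lowest in each library, at 137, 320, 332 and 451 CPM, while the other 2 subsets did not keep 1 order. In macrophage-like cells the split by Arg1 gave no such pattern, since Tnf was higher with Arg1 in libraries 3 and 4 (686 against 534 and 321 against 278 CPM) and lower in libraries 1 and 2 (248 against 264 and 307 against 329 CPM).

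**Figure D2:**
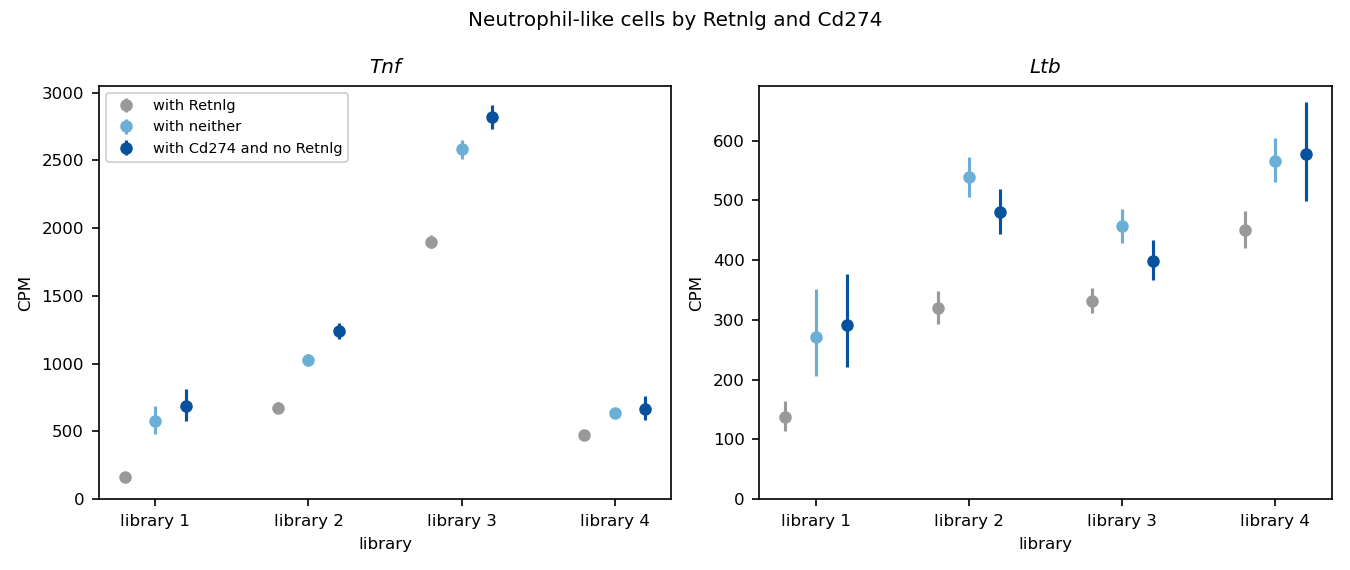
CPM of Tnf (left) and Ltb (right) in neutrophil-like cells of each library (horizontal axis), split by Retnlg and Cd274 transcripts. Points are pooled cells of 1 subset in 1 library and bars are exact 95% Poisson intervals, hidden where smaller than the point. The Retnlg cells are the lowest of the 3 subsets in all 4 libraries for both genes.

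The receptors of TNF differed in how steady they were. Tnfrsf1a, the receptor with the death domain, had its peak of 232 CPM in neutrophil-like cells, and its libraries lay close together, at 232, 241, 218 and 244 CPM. Endothelial-like cells had 184, 201 and 163 CPM in libraries 1 to 3, the libraries with 20 cells or more of the class, and did not reach the neutrophil-like range. Fibroblast-like cells had 139, 152, 152 and 197 CPM and held 50.9% of the UMIs of the gene, being many and deep. The level was the same with and without a Ptprc UMI in them, 162 and 168 CPM. Monocyte-like (139 CPM) and macrophage-like cells (99.5 CPM) were intermediate. The 4 T cell-like classes had 21.4 to 26.9 CPM, and mature DC-like cells were lowest at 18.8 CPM. At equal depth 21.0% of neutrophil-like and 18.9% of endothelial-like cells had a Tnfrsf1a UMI, against 2.74% of T cell-like and 1.53% of pDC-like cells.

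Tnfrsf1b, the receptor without the death domain, had its highest level, 318 CPM, in neutrophil-like cells, with 109, 381, 395 and 174 CPM in libraries 1 to 4. The 2 libraries high in Tnfrsf1b here, 2 and 3, were also those highest in Tnf. Foxp3-positive T cell-like cells came next at 201 CPM, with 97.3, 129 and 295 CPM in libraries 1 to 3. Neutrophil-like cells led them in each of the 3, by 1.12, 2.95 and 1.34 times, but the ranges over libraries overlapped. Other T cell-like classes had 67.6 to 99.0 CPM, monocyte-like cells 108 CPM and mature DC-like cells 89.9 CPM. At equal depth the share was 26.4% in neutrophil-like and 22.5% in Foxp3-positive cells, against 9.44% in the fibroblast-like background. Within that background it was 13.0% with and 7.32% without a Ptprc UMI. Monocyte-like cells (10.2%) and T cell-like cells without Cd4 or Cd8 (10.6%) were close to the 9.44% and above the 7.32%. CD8 (8.71%) and CD4 Foxp3-negative T cell-like (7.78%) and macrophage-like cells (8.98%) lay between 7.32% and 9.44%. Mature DC-like (6.80%) and NK cell-like cells (5.78%) were below both. The CPM of each of these classes was above the 32.7 CPM of fibroblast-like cells, so no order against fibroblast-like cells is read for them. Fibroblast-like cells held 21.9% of the UMIs, and those without a Ptprc UMI had 27.7 CPM.

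In single neutrophil-like cells at equal depth, Tnf and Tnfrsf1a were found together in 572 cells, and Tnf and Tnfrsf1b in 916. Independence within each library, summed over the libraries, gives 627 and 854. Within the libraries the ratio of found to given was 0.970, 0.796, 0.963 and 0.956 for Tnf with Tnfrsf1a, and 1.45, 1.08, 1.04 and 1.18 for Tnf with Tnfrsf1b. For Tnf and Ltb it was 2.16, 1.25, 1.14 and 1.12. The pair of ligands and the pair with Tnfrsf1b were thus above 1 in each library and the pair with Tnfrsf1a below 1. In library 1 the 2.16 rests on 27 cells and the 1.45 on 19 cells. With Tnfrsf1a, library 2 departed most (149 against 187). Libraries 1, 3 and 4 were close to the number given (20 against 20.6, 279 against 290 and 124 against 130). No interval was computed for these ratios. With Fas the ratio was on both sides of 1 (0.862 to 1.36).

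Fasl, the ligand of cytotoxic lymphocytes, was rare, with 467 UMIs in 365 cells. CD8 T cell-like cells had 90.8 CPM (76.6 to 107) and NK cell-like cells 83.1 CPM (66.3 to 103), which do not differ beyond counting error. CD8 T cell-like cells came almost wholly from library 1, where they had 95.4 CPM. Without library 1 the 24 cells left had 20.1 CPM, on 0.847% of the Fasl UMIs of those libraries, and NK cell-like cells led. So few cells allow no reading of a fall. NK cell-like cells had 81.0, 119 and 66.1 CPM in libraries 1, 3 and 4, above the highest library of the next class. That class, CD4 Foxp3-negative T cell-like cells, had 28.6, 7.08, 22.5 and 7.61 CPM, and Foxp3-positive cells had 4.50 CPM pooled. A Fasl UMI was present in 37.2% of CD8 T cell-like cells (median 4596.5 UMIs) and 35.8% of NK cell-like cells (median 4147), against 0.534% of the deeper fibroblast-like background. At equal depth the shares were 10.2%, 9.25% and 0.154%. No UMI was seen in 251 endothelial-like, 131 pDC-like or 124 cDC2-like cells. A count of 0, read as at most 3 cells, allows a share of cells with a UMI of up to 1.20%, 2.29% and 2.42%, which is no limit on the share of cells that express the gene. Neutrophil-like cells had 43 UMIs, or 2.58 CPM.

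Fas, the receptor, reached 147 CPM in neutrophil-like cells, with 70.1, 191, 144 and 125 CPM in libraries 1 to 4. Library 1 was lowest, as it was for Tnf, Tnfrsf1b and Ltb in this class. Mature DC-like cells had 82.8 CPM, nearly all from library 3 (84.9 CPM there, against 144 CPM in neutrophil-like cells). Foxp3-positive T cell-like cells had 12.2, 24.7 and 99.9 CPM in libraries 1 to 3, and library 3 alone was high. Of the classes highest in the ligand, CD8 T cell-like cells had 18.8 CPM of the receptor and NK cell-like cells 6.93 CPM on 7 UMIs. Tumour or epithelial-like cells had 8.31 and 8.38 CPM in libraries 1 and 2. Fibroblast-like cells had 24.0 CPM, 24.3 with and 23.8 without a Ptprc UMI, while their thinned shares differed (5.98% and 3.52%). They held 37.1% of the Fas UMIs, against 27.5% in neutrophil-like cells. In thinned cells Fas was present in 13.2% of neutrophil-like and 7.77% of mature DC-like cells, against 4.44% of fibroblast-like cells and 1.01% of tumour or epithelial-like cells.

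Tnfsf10, which encodes TRAIL, had 1732 UMIs and no steady leader. CD8 T cell-like cells had the highest pooled level at 41.3 CPM (31.9 to 52.6), then Foxp3-positive T cell-like (22.5), endothelial-like (21.1) and NK cell-like cells (19.8). In library 1 endothelial-like cells led with 48.2 CPM, but they had 19.2 and 6.50 CPM in libraries 2 and 3. NK cell-like cells had 16.2 CPM in library 1, no UMI in library 3 and 26.4 CPM in library 4. Monocyte-like cells had 5.35, 3.77, 7.75 and 12.4 CPM. Without library 1 the 24 CD8 T cell-like cells left had 10.0 CPM, on 0.117% of the Tnfsf10 UMIs of those libraries. No fall is read from so few cells. Foxp3-positive T cell-like cells were then the highest class, as they were after thinning. The largest share of the UMIs, 36.7%, lay in tumour or epithelial-like cells, at 8.02 CPM, with 8.41 CPM in library 1 and 0.762 CPM on 3 UMIs in library 2. In these the level was 8.24 CPM without a Ptprc UMI and 6.96 CPM with one. At equal depth Tnfsf10 was present in 4.23% of Foxp3-positive T cell-like, 3.79% of CD8 T cell-like and 0.851% of tumour or epithelial-like cells, against 0.103% of fibroblast-like cells (1.34% before thinning). No UMI was seen in 131 pDC-like cells.

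Tnfrsf10b, the death receptor of TRAIL in the mouse, was highest in endothelial-like cells at 32.5 CPM (27.5 to 38.3), with 21.9, 27.2 and 65.05 CPM in libraries 1 to 3. All 3 lay above tumour or epithelial-like cells, which came next with 8.59 and 17.0 CPM in libraries 1 and 2, or 9.01 pooled. Fibroblast-like cells had 7.59 CPM and, by their number, 43.5% of the UMIs. Neutrophil-like, macrophage-like and monocyte-like cells had 2.40, 1.97 and 0.727 CPM, and cDC2-like and pDC-like cells had none. At equal depth 4.51% of endothelial-like cells (2.27 to 7.92) had a UMI, against 0.0287% of monocyte-like cells. Library 3 rests on 29 endothelial-like cells.

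**Figure D3:**
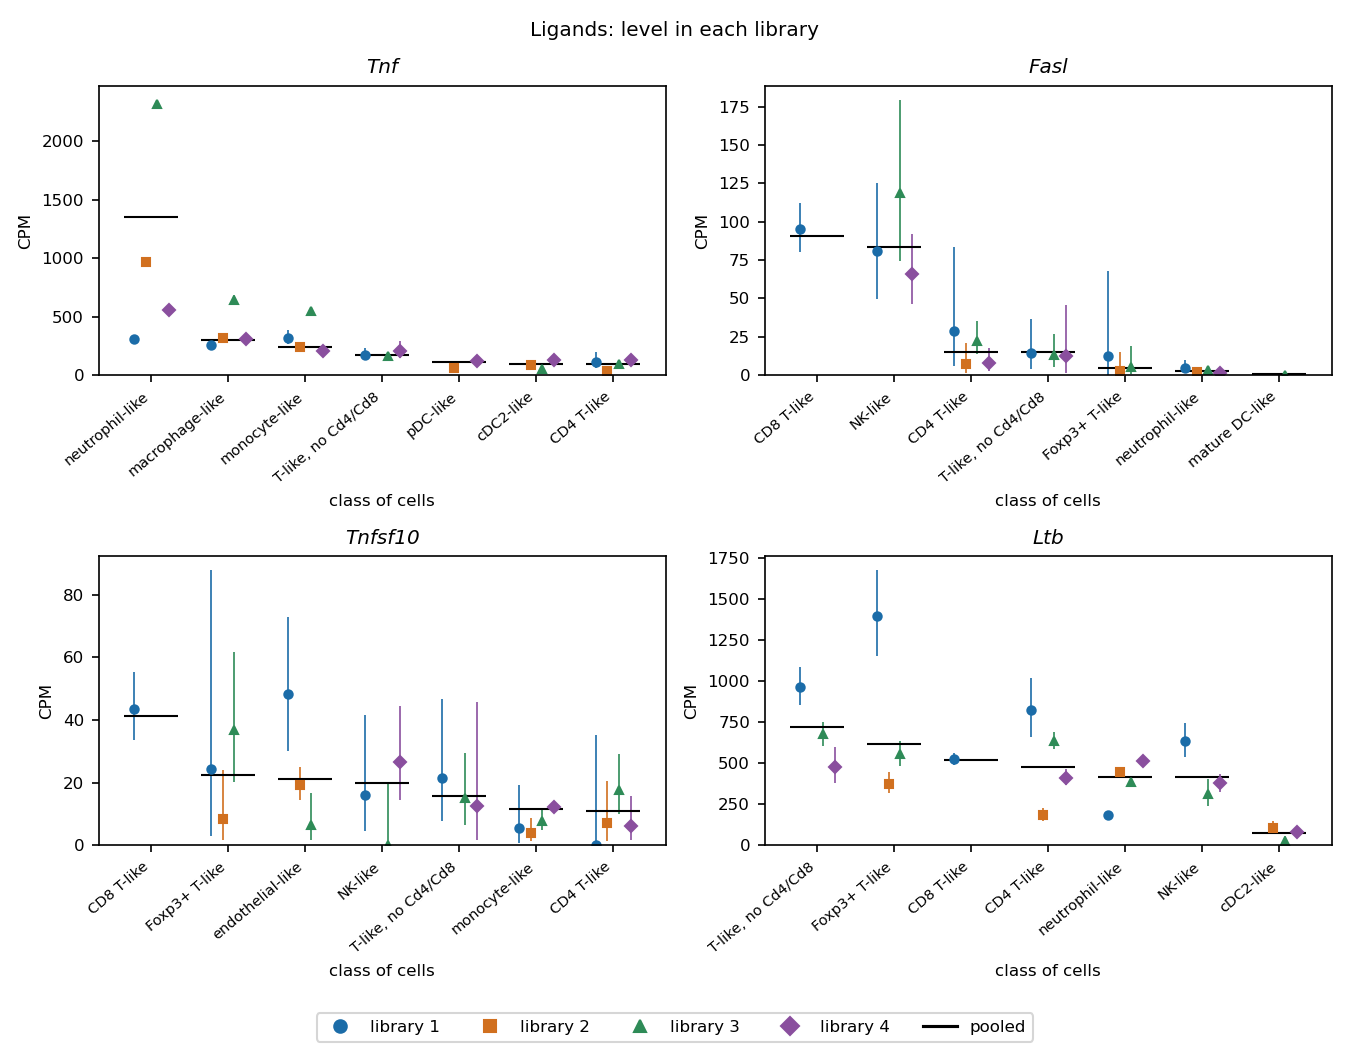
CPM (vertical axis, from 0, a scale of its own in each panel) of the 4 ligands in the 7 classes with the highest pooled level, 1 panel a gene. Symbols are libraries with 20 cells or more of the class, bars exact 95% Poisson intervals and lines the pooled level. Tnf in neutrophil-like cells spans 308 to 2320 CPM, and Ltb in Foxp3-positive T cell-like cells 376 to 1399 CPM.

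Ltb was highest by pooled level in T cell-like classes, which led in libraries 1 and 3, while neutrophil-like cells led in libraries 2 and 4. T cell-like cells without Cd4 or Cd8 transcripts had 724 CPM, with 964, 676 and 480 CPM in libraries 1, 3 and 4. Foxp3-positive cells had 617 CPM (1399, 376 and 555 in libraries 1 to 3), CD8 T cell-like cells 523 CPM and CD4 Foxp3-negative cells 480 CPM (828, 184, 638 and 412). The order among these classes changed between libraries and their ranges overlapped. Foxp3-positive cells led after thinning, by the mean of the cells' own CPM and without library 2. The cells without Cd4 or Cd8 were shallower, at a median of 2587 UMIs against 4684 in the CD4 cells. NK cell-like cells had 417 CPM, with 636, 312 and 378 CPM in libraries 1, 3 and 4.

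Neutrophil-like cells also had 417 CPM of Ltb, with 182, 447, 387 and 511 CPM in libraries 1 to 4, and they held 43.6% of its UMIs, the most of the classes. In libraries 2 and 4 they were above the next class, Foxp3-positive cells (376 CPM) in library 2 and T cell-like cells without Cd4 or Cd8 (480 CPM) in library 4, but the counting intervals overlapped. Library 4 was the highest for Ltb in this class and library 3 for Tnf. After these 6 classes the level dropped to 76.5 CPM in cDC2-like cells, and the libraries of NK cell-like and cDC2-like cells did not overlap. Monocyte-like and macrophage-like cells, the other phagocytes, had 30.4 and 27.5 CPM. Thinned shares were 46.6% of T cell-like cells without Cd4 or Cd8, 32.9% of NK cell-like and 29.7% of neutrophil-like cells, against 3.14% of the fibroblast-like background, or 1.78% of those without a Ptprc UMI. The neutrophil-like cells holding 50% of the Ltb UMIs made up 6.43%, 9.80%, 10.3% and 12.0% in libraries 1 to 4, above the shares for Tnf in libraries 1, 2 and 4 and below it in library 3.

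Ltbr, its receptor, had the converse pattern. Endothelial-like cells had 65.8, 61.0 and 68.3 CPM in libraries 1 to 3, or 62.8 CPM pooled (55.7 to 70.7). Fibroblast-like cells had 45.9, 57.7, 55.9 and 66.5 CPM, or 59.5 CPM pooled, and held 50.1% of the UMIs. Monocyte-like (51.9 CPM) and macrophage-like cells (46.1 CPM) were close, and no neighbouring pair in the order of classes was apart over libraries. Fibroblast-like cells led under the stricter gate and without the deepest cells, and monocyte-like cells led after thinning and by the mean of the cells' own CPM. Tumour or epithelial-like cells had 31.7 CPM and neutrophil-like cells 18.6 CPM. NK cell-like cells had 3.96 CPM on 4 UMIs, and T cell-like cells together 7.42 CPM. At equal depth the share was 5.33% in endothelial-like, 5.07% in fibroblast-like and 5.30% in monocyte-like cells, against 0.850% in T cell-like cells. The classes with the most ligand were thus those with the least receptor transcript, apart from neutrophil-like cells, which held some of both.

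**Figure D4:**
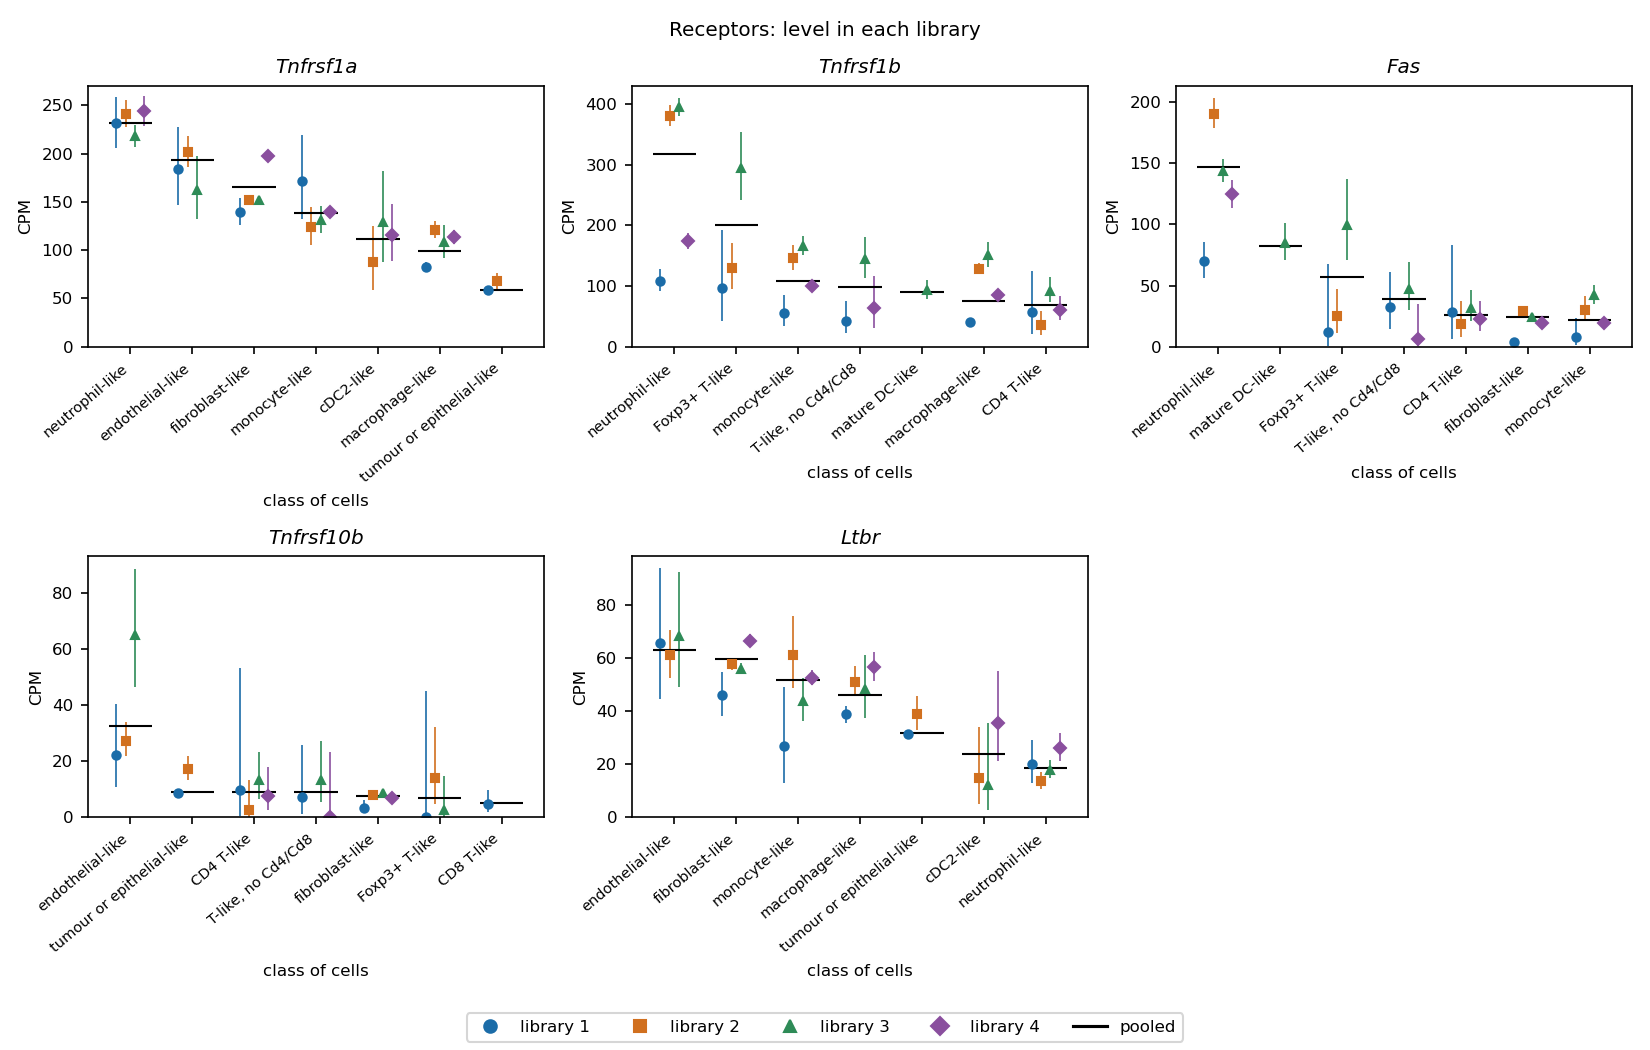
CPM (vertical axis, from 0, a scale of its own in each panel) of the 5 receptors in the 7 classes with the highest pooled level. Symbols are libraries with 20 cells or more of the class, bars exact 95% Poisson intervals and lines the pooled level. In neutrophil-like cells Tnfrsf1a keeps to 218 to 244 CPM while Tnfrsf1b spans 109 to 395 CPM.

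The 5 classes of 30 to 88 cells are given as pooled values only. Pericyte-like cells had 228 CPM of Tnfrsf1a (203 to 255), beside 232 CPM in neutrophil-like cells. They had 72.5 CPM of Ltbr, against 62.8 CPM in endothelial-like cells, and 2.27 CPM of Tnfrsf10b, far below endothelial-like cells. Highest classes were named without these small classes. Basophil-like cells had 312 CPM of Tnf (252 to 381) on 95 UMIs and 167 CPM of Ltb. B cell-like cells had 389 CPM of Ltb on 26 UMIs, and cDC1-like cells 98.2 CPM of Tnf. No Fasl UMI was seen in any of the 5.

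A member was marked as class-specific where its highest class was at least 2 times the next. Among all genes with 500 UMIs or more in gated cells, 2583 of 13155 (19.6%) met this. Of the members 2 of 8 did, Tnf at 4.53 and Tnfrsf10b at 3.61, while Fasl had too few UMIs to be counted. Both marks rest on pooled levels and did not hold in each library. Against the same next class the ratio of Tnf was 1.19, 3.05, 3.63 and 1.82 in libraries 1 to 4. That of Tnfrsf10b was 2.55 and 1.60 in libraries 1 and 2. The median ratio was 1.58 for all 9 members, Fasl included, and 1.26 for all genes with 500 UMIs or more.

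**Figure D5:**
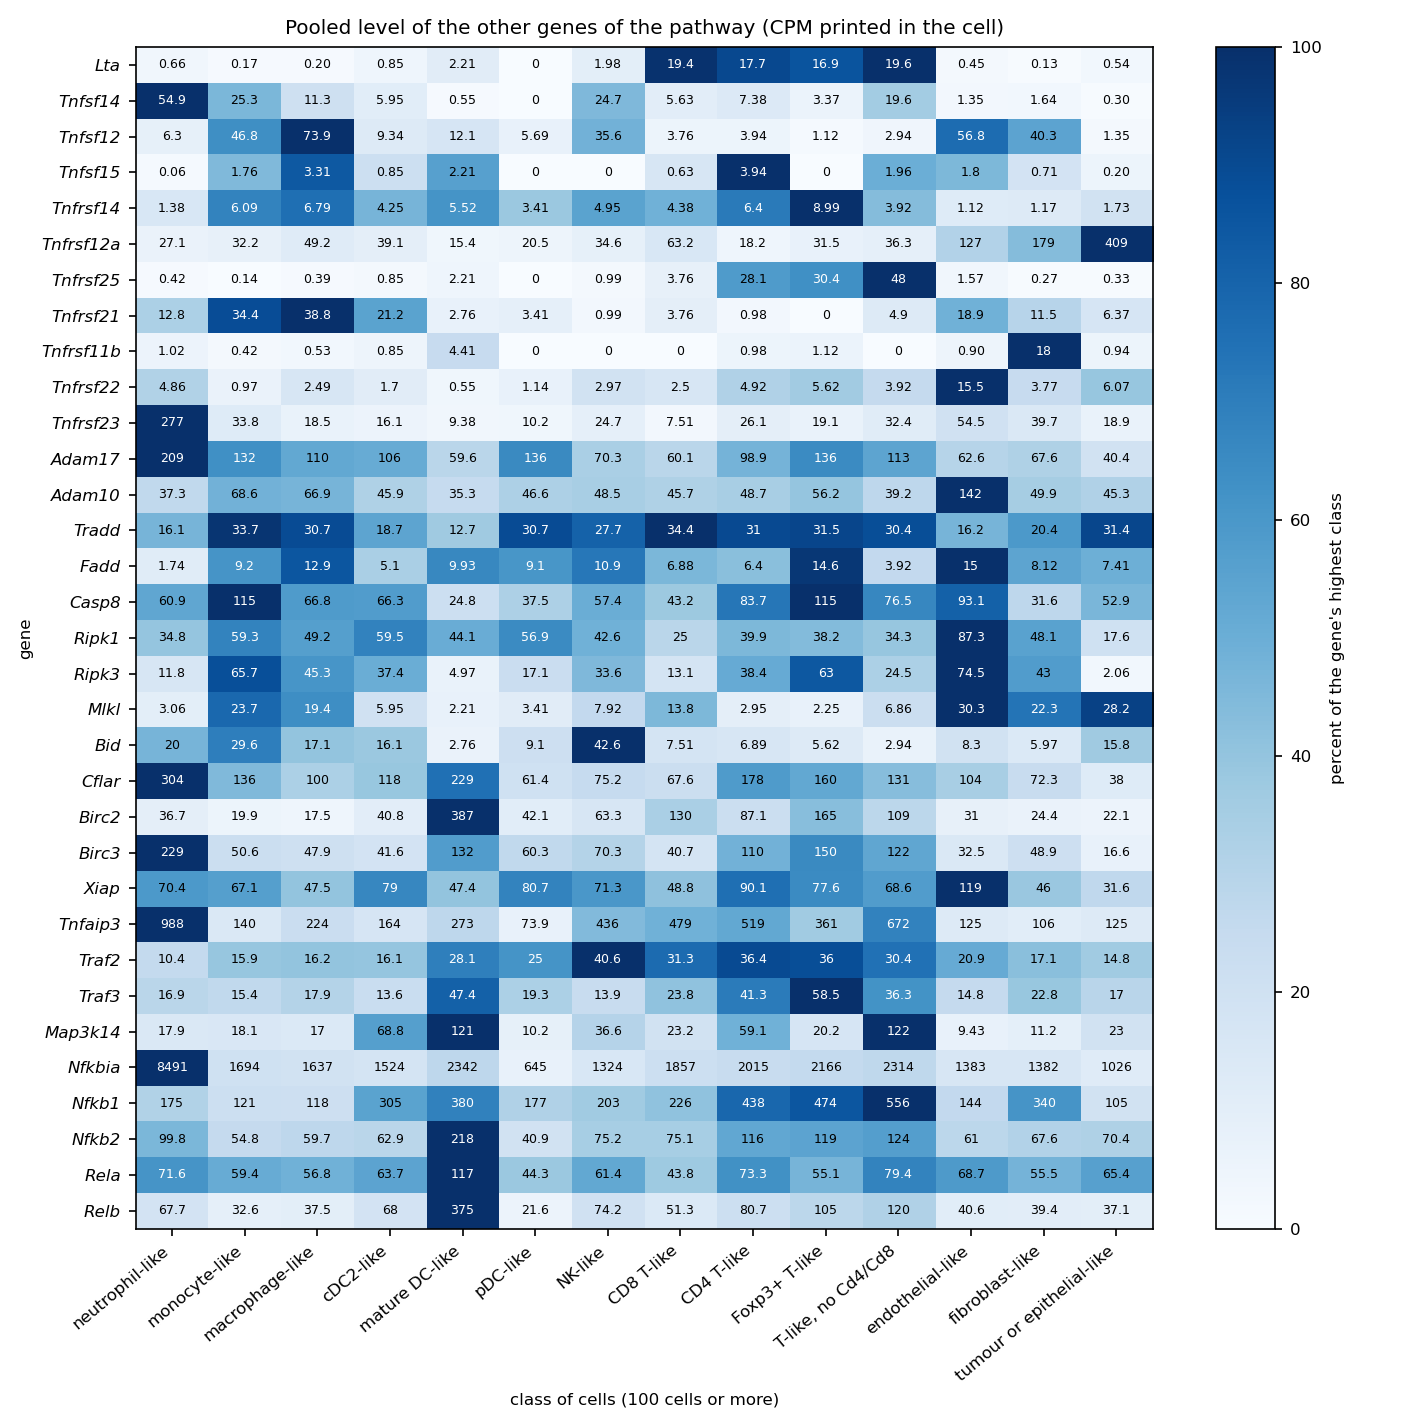
Heat map of 33 other genes of the pathway (rows, ordered by role from ligands to NF-kB signalling) in the same 14 classes (columns). Each cell prints the pooled CPM and the shade gives it as a percent of the highest class of that gene. Nfkbia and Tnfrsf23 stand out in neutrophil-like cells (8491 and 277 CPM), and Relb and Birc2 in mature DC-like cells (375 and 387 CPM).

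The 33 other genes of the pathway were described in the same way, and 9 of the 30 that could be counted were class-specific against the 19.6% of all genes. By pooled level neutrophil-like and endothelial-like cells led 7 genes each, and mature DC-like and T cell-like cells without Cd4 or Cd8 led 4 each. Some leads were near ties, such as that of Lta (19.6 against 19.4 CPM in CD8 T cell-like cells). The share of all genes that each class led was not counted, so counts of led genes, here and by role, are not read further. Of the 4 further ligands, Tnfsf14 (LIGHT, a second ligand of Ltbr) led in neutrophil-like cells with 54.9 CPM, 2.17 times the next class by pooled level. In library 1 NK cell-like cells led, with 28.3 against 23.6 CPM. In libraries 2 to 4 neutrophil-like cells had 45.7, 55.3 and 76.7 CPM, against 32.4, 35.1 and 24.2 CPM in monocyte-like cells. Tnfsf12 (TWEAK) was highest by pooled level in macrophage-like cells at 73.9 CPM, which led in 3 libraries. Lta, the partner of Ltb, had only 238 UMIs and 19.6 CPM in T cell-like cells without Cd4 or Cd8. Its level in neutrophil-like cells was 0.660 CPM on 11 UMIs.

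Of the 7 other receptors and decoys, Tnfrsf23, a decoy receptor of TRAIL, reached 277 CPM in neutrophil-like cells, 5.08 times endothelial-like cells and first in all 4 libraries. Tnfrsf11b, which encodes the soluble decoy osteoprotegerin, was a fibroblast-like gene at 18.0 CPM, with 88.4% of its UMIs there. Tnfrsf22, a similar neighbouring decoy, was highest by pooled level in endothelial-like cells at 15.5 CPM, but led there only in library 3. Reads of Tnfrsf22 and Tnfrsf23 may be hard to tell apart. Tnfrsf12a, the receptor of TWEAK, led in tumour or epithelial-like cells at 409 CPM, against 179 CPM in fibroblast-like cells. Of the proteases that release these ligands, Adam17, which cuts TNF, was highest by pooled level in neutrophil-like cells (209 CPM). Adam10 was highest in endothelial-like cells (142 CPM). Each led there in 3 libraries, and in library 1 monocyte-like cells led Adam17 at 110 CPM.

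Of the 7 genes of death signalling, 4 led by pooled level in endothelial-like cells, namely Fadd, Ripk1, Ripk3 and Mlkl, and none was class-specific. Fadd, Ripk1 and Ripk3 led there in 2 libraries each and Mlkl in 3. Fadd (15.0 against 14.6 CPM in Foxp3-positive T cell-like cells) and Mlkl (30.3 against 28.2 CPM in tumour or epithelial-like cells) were near ties. Bid was highest by pooled level in NK cell-like cells (42.6 CPM), which led in libraries 3 and 4 only. Ripk3, the kinase of necroptosis, had 2.06 CPM in tumour or epithelial-like cells against 74.5 CPM in endothelial-like cells. Fadd had 1.74 CPM in neutrophil-like cells, its lowest class, where Fas had its highest. Of the 5 inhibitors 3 led by pooled level in neutrophil-like cells, namely Cflar, the inhibitor of caspase-8, at 304 CPM, Birc3 at 229 CPM and Tnfaip3 at 988 CPM. Within libraries Birc3 led there in 4, Cflar in 3 and Tnfaip3 in 2. Tnfaip3 was higher in CD4 Foxp3-negative T cell-like cells in library 1 and in T cell-like cells without Cd4 or Cd8 in library 4. Birc2 led in mature DC-like cells at 387 CPM, 2.34 times the next class by pooled level. Library 3 was the only library with 20 cells or more of that class. There it led with 394 CPM against 226 CPM in Foxp3-positive T cell-like cells.

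Of the 8 genes of NF-kB signalling, Nfkb2, Rela and Relb led by pooled level in mature DC-like cells. Only library 3 held 20 cells or more of that class. Relb, the partner of p52, reached 375 CPM in these cells, 3.14 times the next class. In library 3 Relb had 357 CPM in them, against 159 CPM in T cell-like cells without Cd4 or Cd8. Nfkbia, an inhibitor and target of NF-kB, reached 8491 CPM in neutrophil-like cells, 3.62 times mature DC-like cells by pooled level. It led there in all 4 libraries, but narrowly in library 1 (4119 against 3772 CPM in Foxp3-positive T cell-like cells). The T cell-like cells without Cd4 or Cd8 led Nfkb1 (556 CPM) and Map3k14 (122 CPM, beside 121 CPM in mature DC-like cells).

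The genes whose levels ran most like each member were found by Pearson's r of log2(CPM + 10) over 32 sums of 1 class in 1 library (50 cells or more), among 13155 genes. These sums share their libraries and classes, and r is a description. Tnf ran with Pik3ap1 (r = 0.92), Lilr4b (0.92) and Ccr1 (0.91), and Tnfrsf1b with Mxd1 (0.92), Rab11fip1 (0.92) and Tgif1 (0.90). Tnfrsf1a ran with Cebpd (0.90), Mbnl2 (0.88) and App (0.87). Fasl ran with Nkg7 (0.94), Ctsw (0.91) and Gimap7 (0.88), of which Nkg7 and Ctsw are known from cytotoxic lymphocytes. Fas ran with Stx11 (0.92), Birc3 (0.87) and Gm5483 (0.87). Ltb ran with Ipcef1 (0.94), Lmbr1l (0.91) and Hcst (0.89), and Ltbr with Slc35f5 (0.92), Plod3 (0.92) and Ctbp2 (0.89). The likeness was weaker for Tnfsf10 (Prkch, 0.86, Gimap5, 0.82, and Gimap4, 0.81) and Tnfrsf10b (Lysmd2, 0.83, Mast4, 0.81, and Nap1l4, 0.81).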

How the data were processed

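The authors deposited 1 matrix of whole-number UMI counts, not normalized, for 55450 genes and 33064 barcodes of 4 pooled libraries. They made it with Cell Ranger on mm10 (2.1.1 in the submitters' processing notes, 3.0.2 in the extract protocol, 6.1.2 in the matrix header). The design text gives 15603 cells, against 32133 that its stated filter (300 genes, 15% mitochondrial UMIs) leaves here. Library totals were 69255999 to 108646352 UMIs. All 55450 identifiers were in GENCODE vM21.

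A cell joined the class of which it had at least 2 distinct markers and more than of any other list. T cell-like cells were split by Foxp3, Cd4, Cd8a and Cd8b1. 4611 cells stayed ungated, 3746 of them tied between lists, and 8168 gated cells (29.7%) were 1 marker from the cut. No doublet caller was run, and mixed cells were left to the ties, the stricter gate and the removal of the deepest cells. Klra4 was found in only 4.05% of NK cell-like cells.

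Classes under 100 cells and libraries under 20 cells of a class were left out of orders. A class was apart from the next where the ranges of their libraries did not overlap. Background shares were taken from fibroblast-like cells for Tnf, Fasl, Ltb and Tnfrsf1b, from T cell-like cells for Ltbr, and for the others from classes of low share. A count of 0 allows up to 3 counts. Named were the 9 members, of the 33 other pathway genes at most 4 per role with the highest ratio of first to next class (a few more were named after their values were seen), and 3 genes per member by likeness. 1 further gene of the pathway list is not reported here. Members and lists were chosen with earlier results of these data known. Gate, levels and thinning were tested on simulated data. Python 3.11.15, numpy 2.4.6, scipy 1.17.1 and pandas 2.3.3 were used. The split by Ptprc was added after seeing the data.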

Additional observations from a re-analysis of the deposited data

How the results depend on the processing

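The level of each member in its highest class was recomputed under 12 alternatives, 108 values in all. Of these 68 stayed within the counting interval of the reported level, and the highest class stayed in 97. A minimum of 500 genes, a limit of 10% mitochondrial UMIs and lists without their first marker left all 9 levels within it. Under the stricter gate Tnf was 1395 and Tnfrsf1a 244 CPM, and without the 5% of cells with the most UMIs Tnf was 1410, Tnfrsf1a 246, Tnfrsf1b 335 and Fas 156 CPM. Thinned to 1000 UMIs, Tnf was 1324, Tnfrsf1a 246, Tnfrsf1b 333, Fasl 114, Fas 154, Tnfrsf10b 45.1 and Ltbr 53.3 CPM. As a mean of the cells' own CPM, Tnf was 1322, Tnfrsf1a 250, Tnfrsf1b 334, Fas 157, Tnfrsf10b 48.0 and Ltbr 53.2 CPM. As a median of the libraries, Tnf was 761, Tnfrsf1b 278, Fas 134 and Tnfrsf10b 27.2 CPM. The cause was not tested. Leaving out each library in turn, the levels were 724 to 1594 (Tnf), 228 to 241 (Tnfrsf1a), 267 to 360 (Tnfrsf1b), 20.1 to 92.6 (Fasl), 129 to 154 (Fas), 10.0 to 42.4 (Tnfsf10), 27.3 to 43.8 (Tnfrsf10b), 633 to 775 (Ltb) and 62.0 to 66.8 CPM (Ltbr). The 11 changes of the highest class were for Fasl, Tnfsf10, Ltb and Ltbr. With at least 2 UMIs asked of a cell, Tnf was found in 36.6% of neutrophil-like and Fasl in 11.3% of CD8 T cell-like cells. The share of the UMIs of a gene held by that class was outside its interval in 53 of 90 values, and for Tnf it was 60.4% after thinning. Thinning takes more UMIs from the deeper classes, and the stricter gate left fewer cells gated (19354). Shifts of the share under these settings follow from their design and are not read. No paired analysis was possible because no library was linked to a sample. Depth limits Fasl, Tnfsf10 and Tnfrsf10b most, whose levels in small classes rest on few UMIs.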

Other observations

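Ungated cells held 15.1% of the Tnf UMIs, at 203 CPM pooled, and 72.6, 205, 512 and 174 CPM in libraries 1 to 4. They held 11.5% of the Ltb UMIs, at 42.8 CPM.

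The 119 barcodes with under 300 genes, which were removed, held 96769 UMIs in all. Among them Tnf had 45 UMIs (465 CPM, 339 to 622), Tnfrsf1b 17 UMIs (176 CPM), Ltb 8 UMIs (82.7 CPM) and Fas 5 UMIs (51.7 CPM). Tnfrsf1a had 1 UMI and Fasl, Tnfsf10, Tnfrsf10b and Ltbr had none.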
